A study of Taeniopygia guttata with 39 samples.

Results

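The genes followed here act in steroid synthesis and conversion in HVC of female canaries given testosterone. They are CYP19A1 (aromatase), SRD5A2 (a steroid reductase), HSD17B2 and HSD3B1 (hydroxysteroid dehydrogenases) and TSPO (the translocator protein). They were chosen by gene symbol for their roles in steroid metabolism, with earlier results of these data known. All 5 were found among the 2236 genes with an official symbol on the array, in a table of 26061 transcripts. Each gene was read from 1 array identifier, matched through RefSeq records of the zebra finch assembly bTaeGut7.mat. Only 2471 of the 26061 identifiers matched a gene in this way, so further identifiers of the 5 genes may lie among the others.

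HVC is one of the forebrain nuclei through which songbirds control learned song. The 39 arrays each held HVC of 1 adult, non-breeding female kept on a light cycle of 9 h light and 15 h dark. Controls (n = 5) carried an empty implant under the skin and the other birds a 7 mm tube of testosterone, for 1 h (n = 6), 3 h (n = 5), 8 h (n = 5), 3 d (n = 6), 7 d (n = 6) or 14 d (n = 6). Per the labels, the birds of the 7 d and 14 d groups sang and the others did not. The study's design text names canaries and the organism field of the labels the zebra finch, and no strain is given.

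Testosterone acts in the brain both as itself and through its products. Aromatase turns it into the estrogen estradiol, a reductase turns it into the potent androgen dihydrotestosterone, and hydroxysteroid dehydrogenases switch steroids between more and less active forms or make their precursors. In songbirds the caudal forebrain around HVC is known for abundant aromatase, and song behaviour depends on both androgens and estrogens.

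The deposited values are on a log2 scale, so a difference of 1 is a doubling. Because identifiers of different genes can differ in how brightly they bind, the level of a gene was compared between groups and not with that of another gene. The median of all transcripts on an array, averaged by group, was 7.59 in control birds, 7.58 at 8 h and 7.57 at 3 d, but 7.71 at 1 h, 7.72 at 3 h, 7.69 at 7 d and 7.82 at 14 d. Every array median at 14 d was above the highest control median of 7.70. Changes are therefore given as deposited and also "centred", with each array's median subtracted. The numbers in the birds' titles lay in 1 range for controls, in another for 8 h and 3 d, and in yet another for the other 4 groups, with no overlap. What that number records is not stated, so its part cannot be told apart from treatment in any difference against control, from 3 h to 8 h or from 3 d to 7 d. Replicate 2 at 3 h stood apart: its correlation with other arrays had a median of 0.886, and no other array was under 0.963 by that measure. Changes and counts against control at 3 h are given with and without it. A gene was called where limma's moderated test gave an adjusted p under 0.05 over all 26061 transcripts. In tissue RNA a change in the number of cells that express a gene and a change in RNA per cell cannot be told apart.

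CYP19A1 rose at 1 h, 3 h, 7 d and 14 d of testosterone and did not pass the test at 8 h and 3 d. The groups in which it rose are those of 1 range of title numbers, and their array medians averaged above control. The groups at 8 h and 3 d are those of another range, so in this pattern duration cannot be told apart from the number range. SRD5A2 rose at 7 d and 14 d, with its highest level at 14 d. It also passed at 3 h as deposited, but not after centring or without the array that stood apart. HSD17B2 rose at 14 d and passed at none of the other 5 durations. HSD3B1 and TSPO passed the test at none of them. The plot of values by bird shows all 5 genes.

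**Figure D1:**
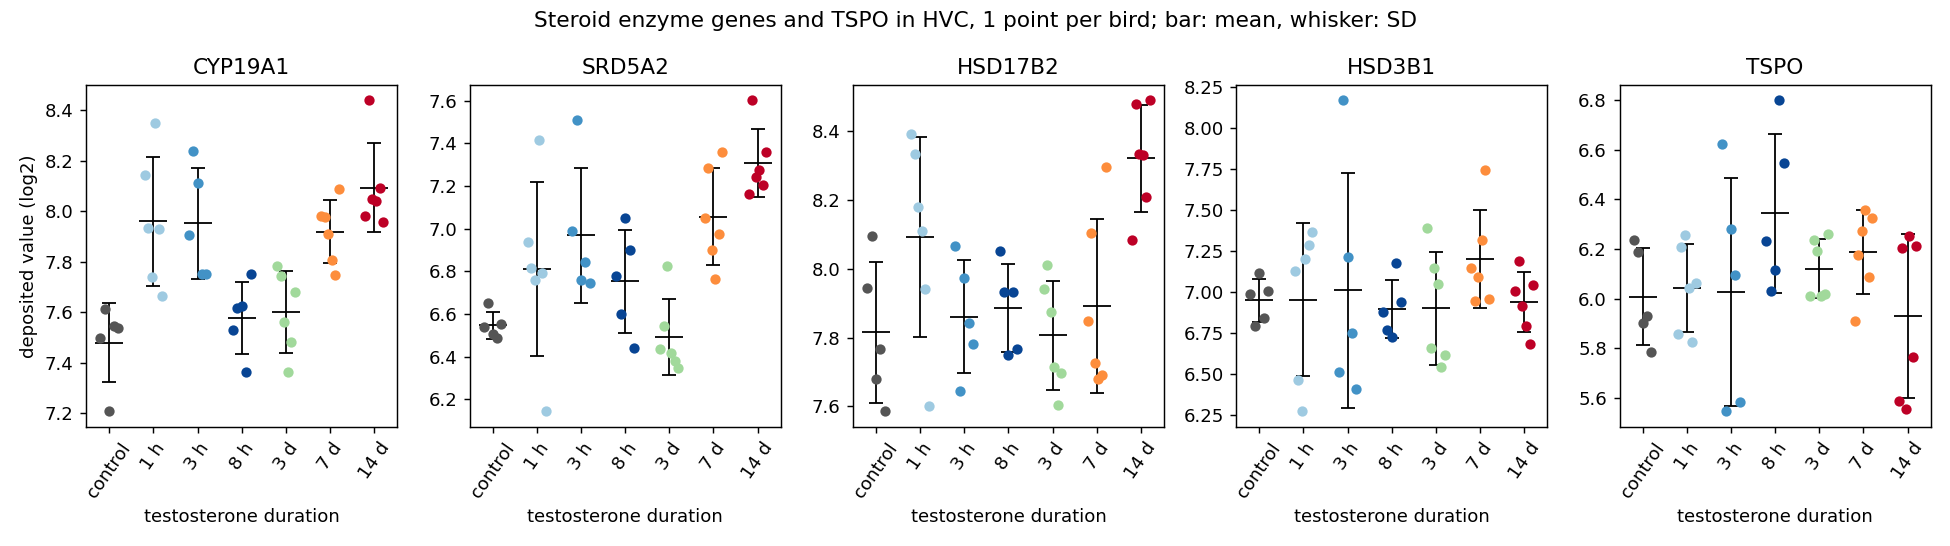
Deposited log2 value of each gene (vertical axis, one scale per panel) by duration of testosterone (horizontal axis), 1 point per bird, with the group mean as a bar and the SD as a whisker. As deposited, CYP19A1 at 1 h, 3 h, 7 d and 14 d lies above every control bird. So does SRD5A2 at 3 h, 7 d and 14 d, while HSD3B1 and TSPO overlap control at each duration. After centring, 5 of 6 birds for CYP19A1 at 1 h and 3 of 5 for SRD5A2 at 3 h lie above. All birds of the other groups named still do. The share of all transcripts that also lie wholly above control was not counted.

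CYP19A1 encodes aromatase, which makes estradiol from testosterone and estrone from androstenedione. In the 5 control birds its values were 7.50, 7.61, 7.21, 7.55 and 7.54, with a mean of 7.48 ± 0.16 (SD, n = 5). At 1 h the lowest, median and highest of 6 birds were 7.66, 7.93 and 8.35, with a mean of 7.96 ± 0.25 (SD, n = 6). The 5 birds at 3 h read 7.91, 8.24, 8.11, 7.75 and 7.75, with a mean of 7.95 ± 0.22 (SD, n = 5). All birds of both groups were above the highest control bird as deposited. After centring, 5 of 6 at 1 h and all 5 at 3 h were. At 8 h the values were 7.53, 7.62, 7.62, 7.36 and 7.75 (mean 7.58 ± 0.14 SD, n = 5). At 3 d the lowest, median and highest were 7.36, 7.62 and 7.78 (mean 7.60 ± 0.16 SD, n = 6). Both of these groups overlapped control, with 3 birds in each above the highest control. At 7 d the values ran from 7.75 through a median of 7.94 to 8.09 (mean 7.92 ± 0.12 SD, n = 6). At 14 d they ran from 7.96 through 8.05 to 8.44 (mean 8.09 ± 0.18 SD, n = 6). Again every bird of the 2 later groups lay above every control. In the order of group means, 14 d came first, then 1 h, 3 h and 7 d, then 3 d, 8 h and control. Neighbours in that order differed by less than the SD of either group, except for the gap between 7 d and 3 d.

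The change of CYP19A1 against control was 0.48 (SE 0.12) at 1 h, with an adjusted p of 0.0142. At 3 h it was 0.47 (adjusted p 0.00671), and 0.40 (adjusted p 0.0325) without the array that stood apart. At 7 d the change was 0.44 (adjusted p 0.0181). The largest was at 14 d, 0.61 (SE 0.12, adjusted p 0.000287), a 1.53-fold higher level. The values at 8 h, 0.10 (95% confidence interval −0.15 to 0.34), and at 3 d, 0.12 (−0.11 to 0.36), did not pass. Centring the arrays drew the 4 called changes together, to 0.35 at 1 h, 0.34 at 3 h, 0.34 at 7 d and 0.38 at 14 d, and all 4 still passed (adjusted p 0.0206, 0.0143, 0.0236 and 0.00246). The call at 1 h was lost without replicate 4 of that group (0.40, adjusted p 0.0586), and that at 7 d without control replicate 3 (0.37, adjusted p 0.0590) or 7 d replicate 6 (0.40, adjusted p 0.0529). With only the groups compared in the fit, the adjusted p was 0.0859 at 1 h and 0.0793 at 3 h.

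Between neighbouring durations, CYP19A1 fell by 0.37 from 3 h to 8 h (adjusted p 0.0185) and rose by 0.32 from 3 d to 7 d (adjusted p 0.0449), between a group labelled non-singing and one labelled singing. Both steps cross ranges of title numbers. After centring, these changes were −0.23 (adjusted p 0.0785) and 0.20 (adjusted p 0.127), so neither passed. With a term for the letter in the birds' titles (L, R or none), they were −0.29 (adjusted p 0.295) and 0.30 (adjusted p 0.159). The letters were 1 L and 4 R at 3 h, and 1 L and 4 with none at 8 h. The 2 steps passed under 4 and 5 of 11 alternatives. The fall missed the threshold without 3 h replicate 2 (−0.30, adjusted p 0.0707) and without 8 h replicate 4 (−0.32, adjusted p 0.0540). The later rise missed it when any 1 of 8 arrays of the 3 d and 7 d groups was left out, with an adjusted p of up to 0.121.

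SRD5A2 encodes the type of reductase that converts testosterone to dihydrotestosterone in mammalian androgen target tissues. Control birds were close together at 6.54, 6.65, 6.51, 6.49 and 6.56, with a mean of 6.55 ± 0.06 (SD, n = 5). At 1 h the lowest, median and highest were 6.15, 6.80 and 7.42 (mean 6.81 ± 0.41 SD, n = 6). At 3 h the birds read 6.99, 7.51, 6.76, 6.84 and 6.74 (mean 6.97 ± 0.32 SD, n = 5). One bird at 1 h fell below every control, whereas all birds at 3 h exceeded the highest control as deposited. After centring, 3 of the 5 birds at 3 h did. The 8 h birds read 6.78, 6.60, 7.05, 6.90 and 6.44 (mean 6.75 ± 0.24 SD, n = 5). At 3 d the values ran from 6.35 through 6.43 to 6.83 (mean 6.49 ± 0.18 SD, n = 6), and 4 of the 6 birds were below the lowest control. At 7 d they ran from 6.76 through 7.01 to 7.36 (mean 7.05 ± 0.23 SD, n = 6). At 14 d they ran from 7.16 through 7.26 to 7.60 (mean 7.31 ± 0.16 SD, n = 6). Each bird of the 7 d and 14 d groups was above all controls and, at 14 d, also above every bird at 8 h and 3 d. By group mean the order was 14 d, 7 d, 3 h, 1 h, 8 h, control and 3 d, and from 7 d to 8 h neighbouring means differed by less than the SD of either group.

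At 14 d the change of SRD5A2 against control was 0.76 (SE 0.15, adjusted p 0.000393), or 1.69-fold, the largest change of any of the 5 genes at any duration. It was 0.53 after centring (adjusted p 0.00184), and the 6 birds stayed above the controls. At 7 d the change was 0.51 (adjusted p 0.0345), and 0.41 after centring (adjusted p 0.0405). It missed the threshold when any 1 of 6 arrays was left out, among them 4 of the 5 controls, with an adjusted p of up to 0.104. A term for the letter in the birds' titles (L, R or none, its meaning not stated) gave an adjusted p of 0.0907. The letter was unevenly spread, with 4 L and 1 R in controls and 1 L and 5 R at 7 d. At 3 d it was 3 L, 1 R and 2 with none, so letter and group were partly confounded. At 3 h the change was 0.42 (adjusted p 0.0427). Without the array that stood apart it was 0.29 (adjusted p 0.210), and after centring 0.29 (adjusted p 0.0966), and neither passed. It passed under 4 of 11 alternatives, and with 33 of 39 single arrays left out. The changes at 1 h (0.26, adjusted p 0.217), 8 h (0.21, adjusted p 0.513) and 3 d (−0.06, adjusted p 0.953) did not pass. Without the 1 h bird that read 6.15, the change at 1 h was 0.40 (adjusted p 0.0318), the only 1 of 39 single omissions that passed there. Without 1 h replicate 4, the highest bird of that group, it was 0.14 (adjusted p 0.574), and after centring 0.14 (adjusted p 0.483). From 3 d to 7 d, a step that crosses ranges of title numbers, SRD5A2 rose by 0.56 (adjusted p 0.00837), and by 0.45 after centring (adjusted p 0.0113). That rise remained called without any single array, the largest adjusted p being 0.0324, but the term for the letter gave 0.0539.

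HSD17B2 encodes a dehydrogenase that in mammals oxidises estradiol to estrone and testosterone to androstenedione, both less active. The control birds read 7.94, 8.09, 7.68, 7.77 and 7.59, with a mean of 7.81 ± 0.20 (SD, n = 5). At 1 h the lowest, median and highest were 7.60, 8.14 and 8.39 (mean 8.09 ± 0.29 SD, n = 6), and 4 of 6 birds exceeded the highest control. Means at 3 h, 8 h, 3 d and 7 d lay between 7.81 and 7.89, each group overlapping control. At 14 d the values ran from 8.08 through 8.33 to 8.49 (mean 8.32 ± 0.16 SD, n = 6), with 5 of 6 birds above the highest control and the sixth just under it. The change at 14 d was 0.50 (SE 0.13, adjusted p 0.00184), or 1.42-fold, and 0.28 after centring (adjusted p 0.0201). At 1 h the change was 0.28 (adjusted p 0.129), and 0.38 (adjusted p 0.0205) without 1 h replicate 6, the array with the lowest median of its group. That was the only 1 of 39 single omissions that passed at 1 h, and after centring the change was 0.15 (adjusted p 0.297). The remaining changes against control were 0.05 at 3 h, 0.07 at 8 h, −0.01 at 3 d and 0.08 at 7 d, and none passed. At 3 h it was 0.10 without the array that stood apart. From 7 d to 14 d, between the 2 groups labelled singing, HSD17B2 rose by 0.43 (adjusted p 0.0194), and by 0.30 after centring (adjusted p 0.0303). Leaving out 14 d replicate 2, 7 d replicate 4 or 7 d replicate 5 raised the adjusted p to between 0.0586 and 0.0700.

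HSD3B1 encodes an enzyme that converts pregnenolone to progesterone and dehydroepiandrosterone to androstenedione, steps upstream of testosterone. Its group means lay between 6.90 at 8 h and 3 d and 7.20 at 7 d, against 6.95 ± 0.13 (SD, n = 5) in controls. Its spread within groups was wide: the SD reached 0.72 at 3 h, where the birds read 6.51, 8.17, 7.21, 6.75 and 6.41, and the highest value came from the array that stood apart. The largest change against control was 0.25 at 7 d (95% confidence interval −0.19 to 0.69, adjusted p 0.456). At 14 d the change was −0.01 (−0.45 to 0.43). The changes at 1 h, 3 h, 8 h and 3 d were 0.0044, 0.06, −0.05 and −0.05. At 3 h it was −0.23 without the array that stood apart, the opposite sign.

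TSPO encodes a cholesterol-binding protein of the outer mitochondrial membrane, long linked to cholesterol supply for steroid synthesis, and in mammals a widely used label of activated microglia. Control birds read 6.24, 6.19, 5.90, 5.93 and 5.78 (mean 6.01 ± 0.20 SD, n = 5). The highest group mean was at 8 h, where the birds read 6.23, 6.03, 6.12, 6.80 and 6.55 (mean 6.34 ± 0.32 SD, n = 5), 2 of them above the controls. The lowest mean was at 14 d, with values from 5.56 through 5.98 to 6.25 (mean 5.93 ± 0.33 SD, n = 6). The change was 0.34 at 8 h (95% confidence interval −0.0028 to 0.68, adjusted p 0.247) and −0.08 at 14 d (−0.40 to 0.25, adjusted p 0.705). At 1 h, 3 h, 3 d and 7 d the changes were 0.03, 0.02, 0.11 and 0.18, and none passed; at 3 h it was 0.14 without the array that stood apart. From 3 h to 8 h the deposited change was 0.32 (adjusted p 0.136), and 0.46 after centring (adjusted p 0.0373). Without the array that stood apart the deposited change was 0.20 (adjusted p 0.405). Leaving out 3 h replicate 1 gave 0.47 (adjusted p 0.0284), the only 1 of 39 single omissions that passed. The change passed under 3 of 10 alternatives.

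**Figure D2:**
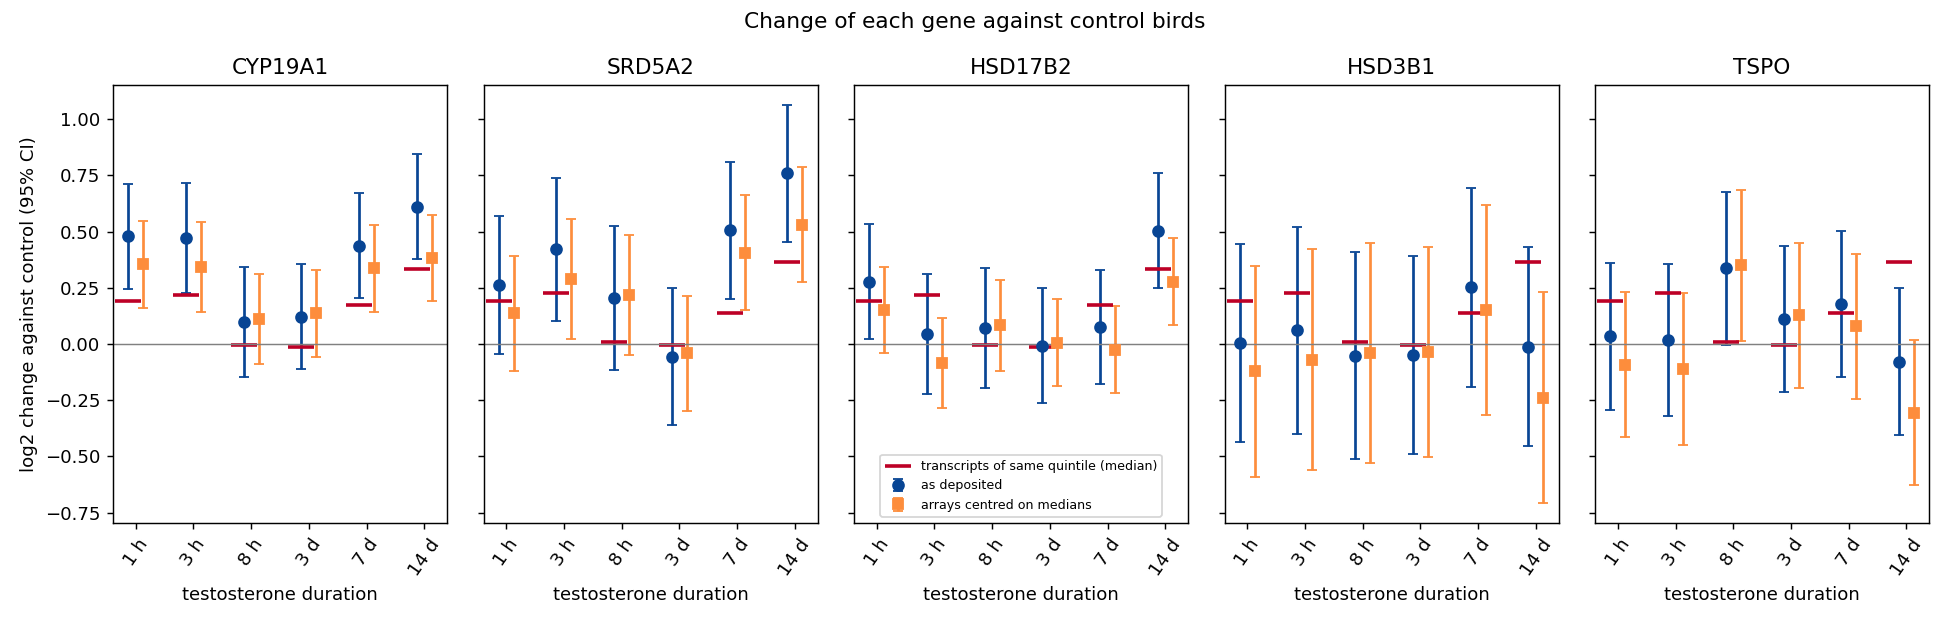
Log2 change of each gene against control (vertical axis) at each duration (horizontal axis), with 95% confidence intervals, as deposited (circles) and with arrays centred (squares); the short red bars mark the median change of all transcripts in the same quintile of mean level. At 14 d the deposited changes (circles) of CYP19A1, SRD5A2 and HSD17B2 lie above their red bars of 0.33 to 0.37, and those of HSD3B1 and TSPO below theirs. The intervals of HSD17B2 (0.25 to 0.76) and HSD3B1 (−0.45 to 0.43) include their bars, and those of the others do not.

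The counts of called genes were read against all transcripts in the same comparison. All 6 durations were compared with the same 5 control birds, so their changes are not independent of one another. At 1 h, 1 of the 5 genes was called, against 8.44% of all transcripts, of which 5.79% of all were higher. At 3 h, 2 of 5 were called, against 28.6% (19.8% higher), and without the array that stood apart 1 of 5 against 9.55%. At 8 h and at 3 d none was called, where 7.21% and 1.05% of transcripts were; no gene of the 5 had an unadjusted p under 0.05 at either. At 7 d, 2 of 5 were called, against 7.87% (4.65% higher). At 14 d, 3 of 5 were called, all higher, but 50.0% of all transcripts were called there and 39.1% were higher, so the count at 14 d was near that of the array as a whole. Among transcripts of similar mean level, 51.0% to 52.2% rose at 14 d. For any duration (limma's moderated F), CYP19A1, SRD5A2 and HSD17B2 passed, with adjusted p of 9.89e-05, 0.000188 and 0.00323, where 67.9% of all transcripts did. After centring, TSPO also passed that test (adjusted p 0.0187), making 4 of 5 against 60.0%.

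After centring, the counts against control were 1 of 5 at 1 h against 7.44% of all transcripts, 1 of 5 at 3 h against 22.8%, 2 of 5 at 7 d against 7.79% and 3 of 5 at 14 d against 43.2%. Relative to the median change of transcripts in the same quintile of mean level, CYP19A1 stood 0.29 higher at 1 h, 0.25 at 3 h, 0.27 at 7 d and 0.28 at 14 d. For SRD5A2 the same distance was 0.07 at 1 h, 0.19 at 3 h, 0.37 at 7 d and 0.39 at 14 d. For HSD17B2 it was 0.17 at 14 d. HSD3B1 and TSPO at 14 d stood below their quintile's median change of 0.37, by distances of −0.38 and −0.44. These distances were not tested. The median change of the 5 genes was 0.50 at 14 d, where the quintiles that hold them had medians of 0.33 and 0.37 and all transcripts 0.22. At 3 h it was 0.06, beside 0.16 over all transcripts.

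Between durations, none of the 5 was called from 1 h to 3 h, where 5.46% of transcripts were, or from 8 h to 3 d, where 0.414% were. In neither had any of them an unadjusted p under 0.05. From 3 h to 8 h, 1 of 5 (CYP19A1, lower) was called against 31.9% of all transcripts, and after centring 1 of 5 (TSPO, higher) against 26.1%. From 3 d to 7 d, 2 of 5 were called against 16.2%, and 1 of 5 after centring against 14.6%. From 7 d to 14 d, 1 of 5 was called against 14.0%, and the same gene, HSD17B2, after centring against 11.1%. The groups labelled singing, 7 d and 14 d, were also set against 1 h and 3 h, which are treated, labelled non-singing and share their range of title numbers. None of the 5 was called there, where 1.92% of transcripts were. In that comparison SRD5A2 was 0.29 higher in the singing groups (unadjusted p 0.00810, adjusted p 0.169). It passed under 1 of 11 alternatives and with 2 of 39 single arrays left out. These were 1 h replicate 4 (adjusted p 0.0447) and 3 h replicate 2 (adjusted p 0.0339), the highest SRD5A2 birds of their groups. Without 1 h replicate 6, the lowest of its group, the adjusted p was 0.285, and after centring it was 0.148. CYP19A1 differed by 0.05 (95% confidence interval −0.11 to 0.21) and HSD17B2 by 0.13 (−0.05 to 0.31). The singing label, the length of treatment and the title number cannot be told apart there.

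The 3 genes called at 14 d moved with the array median also among birds of one group. After removing group means, Pearson's r with the array median over the 39 arrays was 0.62 for CYP19A1, 0.67 for SRD5A2 and 0.80 for HSD17B2, but −0.18 for HSD3B1 and 0.17 for TSPO, beside a median of 0.28 over all transcripts. With the array median as a covariate in the fit, none of the 5 genes was called at any single duration against control. The number of all transcripts called at 14 d went from 13034 to 184. The moderated F for any duration then called 1 of 5, HSD17B2, and 7761 of all transcripts. It did not call CYP19A1 (adjusted p 0.161) or SRD5A2 (adjusted p 0.0766). At 1 h CYP19A1 was then 0.30 (adjusted p 0.154). At 3 h CYP19A1 was 0.29 (adjusted p 0.0862) and SRD5A2 0.15 (adjusted p 0.518). At 7 d they were 0.30 (adjusted p 0.0686) and 0.30 (adjusted p 0.162), and SRD5A2 from 3 d to 7 d was 0.32 (adjusted p 0.0824). The changes at 14 d were 0.29 for CYP19A1 (adjusted p 0.288), 0.28 for SRD5A2 (adjusted p 0.468) and 0.04 for HSD17B2 (adjusted p 0.942). The slope on the array median in that fit comes from differences among birds of one group. Array medians at 3 h and at 14 d lay wholly above those of controls, at 3 h narrowly (lowest 7.6995, highest control 7.6979). At these durations array median and treatment can be separated only by extending that slope across medians that the groups compared do not share. At 1 h and 7 d the array medians overlapped those of controls. The plot against the array median shows the values by group.

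**Figure D3:**
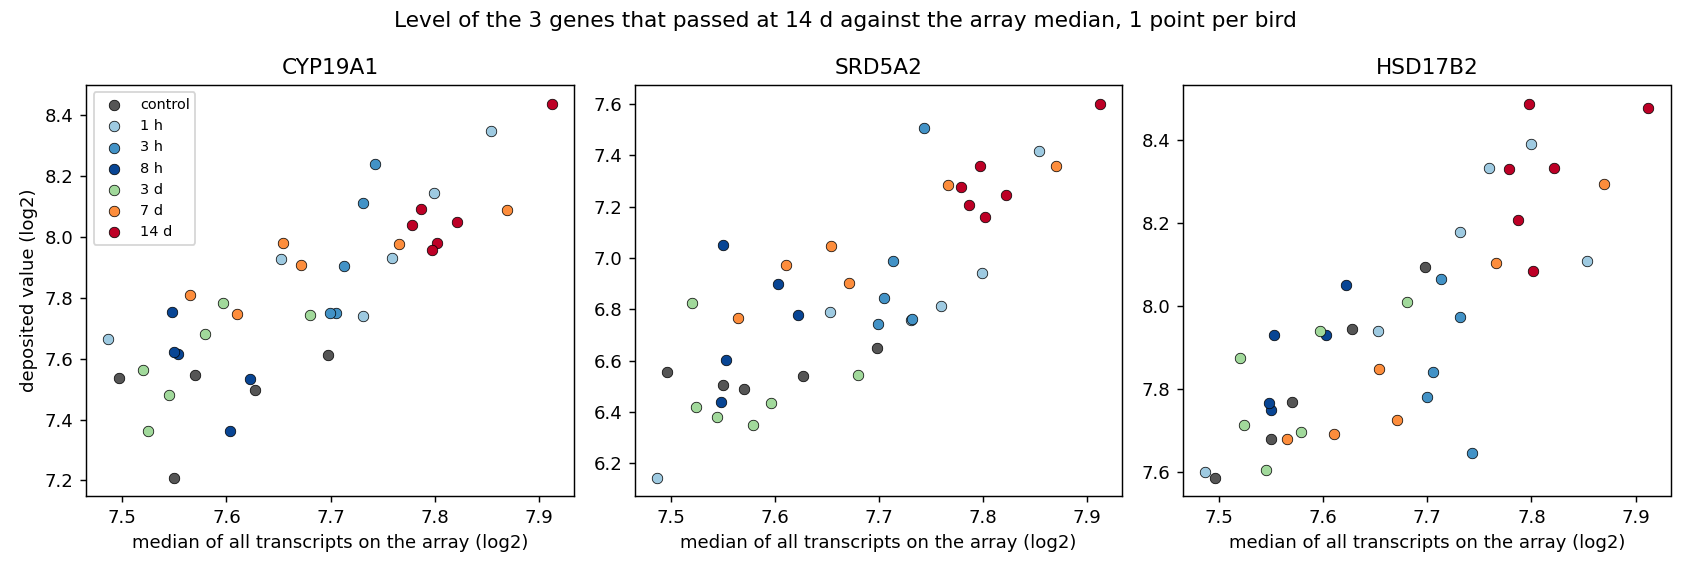
Deposited log2 value of CYP19A1, SRD5A2 and HSD17B2 (vertical axis) against the median of all transcripts on the same array (log2, horizontal axis), 1 point per bird, coloured by group. Arrays with higher medians tended to have higher values of the 3 genes, and the 14 d birds lie at the right of each panel, above a median of 7.77.

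Among themselves, CYP19A1 and SRD5A2 varied most alike, with a Pearson's r of 0.54 over the 39 centred arrays (0.75 as deposited). For HSD17B2 and HSD3B1 r was −0.46 (−0.24 as deposited). For TSPO it was −0.38 with CYP19A1 (−0.18 as deposited) and −0.33 with SRD5A2 (−0.12 as deposited). These values are descriptions over arrays that share groups and array quality. They and the likeness values below include the array that stood apart and were not computed without it. Of the 39 arrays, that one had the lowest centred value of HSD17B2 (−0.10) and the highest of HSD3B1 (0.43) and SRD5A2 (−0.24). Of 2235 other named genes, the ones whose centred values ran most like CYP19A1 were LTA4H (r 0.74) and SSPN (r 0.72). Those most like SRD5A2 were CACFD1 (r 0.84) and TFAP2C (r 0.81), and those most like HSD17B2 were VAT1L (r 0.77) and TCEA1 (r 0.76). HSD3B1 ran most like GXYLT2 (r 0.79) and DDX17 (r 0.75), and TSPO most like UHRF2 (r 0.69) and TMEM179 (r 0.68).

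Other genes of the pathway were taken from 2 lists, of which few genes had a named identifier on the array: 5 of 51 for steroid synthesis and conversion, and 5 of 40 for cholesterol synthesis and traffic. STAR, CYP17A1, CYP11A1, SRD5A1 and HSD17B4 had none. In the steroid list, 3 of 5 rose at 14 d and none fell, where 39.1% of all transcripts rose. After centring, 1 of 5 passed, against 43.2% of all transcripts called. NR5A2, a nuclear receptor that drives steroidogenic genes, rose by 0.70 (adjusted p 0.00262), from 6.12 ± 0.15 (SD, n = 5) in controls to 6.82 ± 0.29 (SD, n = 6), with no overlap as deposited. ACBD3, a Golgi protein that binds TSPO, rose by 0.40 (adjusted p 0.00651) and NR5A1, the steroidogenic factor, by 0.37 (adjusted p 0.0254). After centring only NR5A2 passed of these (0.47, adjusted p 0.0119). FDX1, the ferredoxin that passes electrons to mitochondrial steroid enzymes, changed by 0.61 and CYB5A, a cytochrome b partner of steroid enzymes, by −0.03, and neither passed. CYB5A read only 2.94 on average over the 39 arrays. At the earlier durations the sole call in this list was ACBD3 at 3 h (0.34, adjusted p 0.0372), which was lost on centring (0.21, adjusted p 0.0735) and without the array that stood apart (0.25, adjusted p 0.175).

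In the cholesterol list, 3 of 5 rose and 1 fell at 14 d, where 50.0% of all transcripts were called. After centring, 2 were higher and 2 lower, where 43.2% of all transcripts were called. CYP39A1, which hydroxylates an oxysterol formed from brain cholesterol, rose by 0.84 (adjusted p 0.000448), from 6.19 ± 0.17 (SD, n = 5) to 7.04 ± 0.12 (SD, n = 6), and by 0.62 after centring (adjusted p 0.00187). NPC1, which exports cholesterol from lysosomes, rose by 0.54 (adjusted p 0.00472). FDFT1, which makes squalene, rose by 0.42 (adjusted p 0.000750), but by 0.19 after centring (adjusted p 0.0572). ABCA1, which exports cholesterol from cells, fell. Its control values ran from 7.27 to 7.69, and the highest bird at 1 h (7.00), 3 h (6.95), 7 d (6.91) and 14 d (7.03) was below all of them. Its changes were −0.63, −0.77, −0.90 and −0.76 in those groups, with adjusted p of 0.0237, 0.00299, 0.00134 and 0.000780, and centring made each more negative. Without the array that stood apart the change at 3 h was −0.54 (adjusted p 0.0187). That array also decided the call of FDFT1 at 3 h, with 0.26 (adjusted p 0.0435) over all birds and 0.24 (adjusted p 0.118) without it. At 8 h and 3 d ABCA1 did not pass (−0.27 and −0.35). Its calls thus fell in the groups of 1 range of title numbers, as for CYP19A1, and duration and number range cannot be told apart. MSMO1, a sterol oxidase of cholesterol synthesis, fell at 3 d by 0.43 (adjusted p 0.0180) and was the one call of both lists there. After centring it was also lower at 1 h (−0.37, adjusted p 0.0204), 3 h (−0.27, adjusted p 0.0493) and 14 d (−0.33, adjusted p 0.00906). Over both lists together, 1, 3, 0, 1, 2 and 7 of 10 genes were called at 1 h, 3 h, 8 h, 3 d, 7 d and 14 d, where 8.44%, 28.6%, 7.21%, 1.05%, 7.87% and 50.0% of all transcripts were. After centring the count was 5 of 10 at 14 d, against 43.2% of all transcripts, and 2 of 10 at 3 h, against 22.8%. As deposited, the count at 3 h without the array that stood apart was 1 of 10, against 9.55%.

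**Figure D4:**
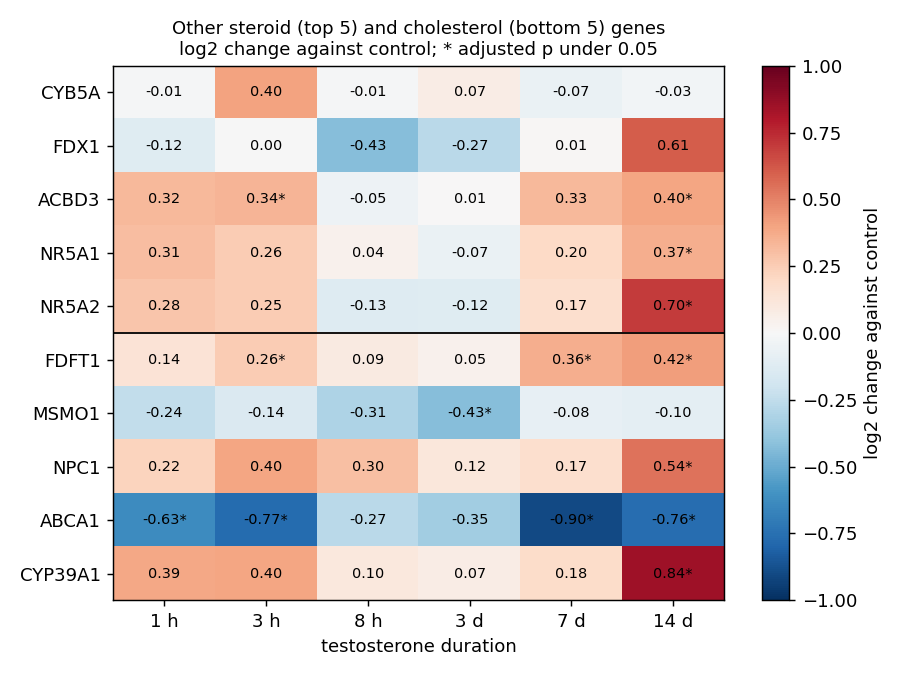
Log2 change against control (colour and number) of the 10 other measured genes of steroid (upper 5) and cholesterol (lower 5) metabolism at each duration (horizontal axis); an asterisk marks an adjusted p under 0.05. ABCA1 is lower at 1 h, 3 h, 7 d and 14 d, and 6 genes are higher at 14 d.

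Few markers of cell types had a named identifier: 5 of 14 for neurons, 4 of 11 for astrocytes and radial glia, 2 of 11 for oligodendrocytes, 1 of 12 for microglia, 1 of 10 for endothelium and 0 of 8 for erythrocytes. The neuronal SNAP25 (mean 11.9) and GAD1 (10.7) gave bright signals, and the radial glial FABP7 averaged 2.60; no measure of detection was used. The estrogen receptor gene ESR1 read 7.19 on average. The mean centred level of the 4 glial markers ran from −1.09 to −0.91 in controls, from −1.14 to −0.56 at 7 d and from −1.45 to −1.08 at 14 d. The mean centred level of the 5 neuronal markers ran from 2.45 to 2.78 in controls and from 2.26 to 2.62 at 14 d. Of single markers, NEFM rose by 0.83 and ELAVL4 fell by 0.37 at 14 d (adjusted p 0.00336 and 0.00142). The part of cell makeup in the changes of the steroid genes was not tested.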

How the data were processed

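Per the labels, RNA of HVC was prepared for hybridisation with kits of Ambion and Affymetrix and put on Affymetrix arrays. The deposited values are log2 values made by the authors, 1 per transcript and array; the scale was read from the values. The submitters' processing notes name affy and Affymetrix Expression Console; versions, summarisation and normalisation are not given in the sources used here. Values were used as deposited, and for arrays their number limits the precision.

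Group means were fitted to all 39 arrays with limma 3.58.1 (lmFit, eBayes; R 4.3.3), with two-sided tests and Benjamini-Hochberg adjustment over 26061 transcripts within each of 13 comparisons. RefSeq accessions gave 2244 identifiers an official symbol. The 5 genes, the pathway and marker lists and the tests were chosen with earlier results of these data known. Pathway genes were named by a rule: those that passed at any duration, by largest change, with up to 6 per list, plus 6 set names where measured. CYB5A, outside it, was named after its values were seen. Results of 2 listed marker genes are not reported here.

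Alternatives were quantile normalization, centring, the array median as a covariate, array weights, a filter on the dimmest 25%, robust eBayes with a trend, the replicate block, the title letter as a term, only the groups compared, an adjusted p under 0.01 and each array left out. Cyclic loess was chosen after seeing the data. In simulated data at 14 d, 37.3%, 86.6% and all of planted changes of 0.5, 1 and 2 were recovered, with 14 other calls among 26061 transcripts. The simulation drew independent noise for each transcript, planted 67, 67 and 66 changes of these sizes and had no shift of array medians. In the deposited data 13034 transcripts were called at 14 d and array medians lay above control, so these rates do not carry over. Nothing in the labels says that birds of one replicate number were kept together. Figures used Python 3.11.15 and matplotlib 3.10.9.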

Additional observations from a re-analysis of the deposited data

Results flagged for a closer look

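Among 35 groups of 5 or 6 values (5 genes in 7 groups), 2 held a bird far from its group, and chance flags about 1 in 20. Both concern CYP19A1. Control replicate 3 read 7.21, with the next lowest control at 7.50, and without it the change at 7 d was 0.37 (adjusted p 0.0590). At 14 d replicate 2 read 8.44, with the next highest bird at 8.09; its array also had the highest median of all arrays, 7.91. Without it the change at 14 d was 0.54 and remained called.

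In 4 cases, 3 of which cross ranges of title numbers (those from 3 h to 8 h and from 3 d to 7 d), neighbouring durations differed by a test of the difference itself. CYP19A1 changed by −0.37 from 3 h to 8 h and by 0.32 from 3 d to 7 d. SRD5A2 rose by 0.56 from 3 d to 7 d. HSD17B2 rose by 0.43 from 7 d to 14 d, groups of 1 range whose title numbers do not overlap. The array medians moved in the same direction across each of these steps: they averaged 7.72 at 3 h and 7.58 at 8 h, 7.57 at 3 d and 7.69 at 7 d, and 7.82 at 14 d.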

How the results depend on the processing

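CYP19A1, SRD5A2 and HSD17B2 at 14 d kept their call under 10 of 11 alternatives and with any single array left out; the exception was the array median as a covariate. Counts of called genes that moved by over 1.5 times were as follows. Parentheses after a count, where given, hold the number of all 26061 transcripts called under the same setting. In the main fit these numbers were 2199 at 1 h, 7459 at 3 h, 2052 at 7 d, 13034 at 14 d and 17705 for any duration. Between durations they were 1423 from 1 h to 3 h, 8307 from 3 h to 8 h, 4227 from 3 d to 7 d and 3653 from 7 d to 14 d. For 7 d and 14 d against 1 h and 3 h the number was 500. With quantile normalization, centring or cyclic loess, 1 gene was called at 3 h (5816, 5946 and 5908) and 1 from 3 d to 7 d (3702, 3812 and 4106). For any duration it was 4 in place of 3 (15560, 15632 and 15710), which is within 1.5 times. With the array median as a covariate, 0 were called at 1 h (246), 3 h (1886), 7 d (1298) and 14 d (184). It was also 0 from 3 d to 7 d (2441) and from 7 d to 14 d (122), and 1, HSD17B2, for any duration (7761). With array weights, 3 were called at 1 h (10941), 1 from 1 h to 3 h (3002) and 2 from 7 d to 14 d (12911). For 7 d and 14 d against 1 h and 3 h it was 2 (3056). With only the groups compared, 0 were called at 1 h (253), 3 h (247) and 3 h to 8 h (3879). With the title letter as a term, 1 was called at 3 h (4191) and 1 at 7 d. With that term, 0 were called from 3 h to 8 h (652) and from 3 d to 7 d (966). At an adjusted p under 0.01, 0 were called at 1 h and at 7 d (470). It was also 0 from 3 h to 8 h (3588) and from 7 d to 14 d (556). At that threshold, 1 was called at 3 h (2007) and 1 from 3 d to 7 d (1269). In each of these title letter and stricter threshold cases, fewer of all transcripts were called than in the main fit. Over single arrays left out, counts ran from 0 to 3 at 1 h, 1 to 2 at 3 h, 0 to 2 at 7 d, 0 to 2 from 3 h to 8 h, 1 to 2 from 3 d to 7 d, 0 to 1 from 7 d to 14 d and 0 to 1 for 7 d and 14 d against 1 h and 3 h. Without 3 h replicate 2, 1 was called at 3 h (2490). For the other single arrays left out, the number over all transcripts is not given here. Moves of the 5 genes there were thus not set against moves of all transcripts. The cause of the moves in all these counts was not tested. With array weights SRD5A2 (0.29, adjusted p 0.0213) and HSD17B2 (0.43, adjusted p 0.000736) also passed at 1 h, and HSD3B1 for any duration (F 2.73, adjusted p 0.0322).

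Counts of the 10 pathway genes follow, with numbers over all transcripts in parentheses. Centring gave 2 called at 1 h (1939), 2 in place of 3 at 3 h (5946) and 5 in place of 7 at 14 d (11247). It gave 1 from 3 d to 7 d (3812) and 1 from 7 d to 14 d (2883). Quantile normalization gave 1 at 3 h (5816), 1 at 7 d (1793), 4 at 14 d (10675), 2 from 3 d to 7 d (3702) and 1 from 7 d to 14 d (2614).

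Signs turned in 35 cases, 0 of which passed the test either way. Under quantile normalization, HSD3B1 was −0.13 at 1 h and −0.074 at 3 h, TSPO −0.086 and −0.15, and HSD17B2 −0.087 at 3 h and −0.025 at 7 d. Under centring, HSD3B1 was −0.12 at 1 h and −0.069 at 3 h, TSPO −0.091 and −0.11, and HSD17B2 −0.084 at 3 h, 0.0060 at 3 d and −0.025 at 7 d. Under cyclic loess, HSD3B1 was −0.16 at 1 h and −0.12 at 3 h, TSPO −0.12 and −0.17, and HSD17B2 −0.10 at 3 h, 0.0081 at 3 d and −0.040 at 7 d. With the array median as a covariate, TSPO was −0.038 at 1 h and −0.057 at 3 h, HSD17B2 −0.22 at 3 h, 0.021 at 3 d and −0.13 at 7 d, HSD3B1 0.18 at 14 d, and CYP19A1 −0.0026 for 7 d and 14 d against 1 h and 3 h. With array weights, HSD3B1 was −0.31 at 1 h and −0.17 at 3 h, and HSD17B2 −0.0081 at 7 d and −0.021 for 7 d and 14 d against 1 h and 3 h. With the title letter, HSD3B1 was −0.0033 at 1 h and 0.018 at 8 h, TSPO −0.048 at 3 h and HSD17B2 0.0042 at 3 d. Over single arrays left out, HSD3B1 ran from −0.078 to 0.14 at 1 h, −0.23 to 0.21 at 3 h, −0.15 to 0.022 at 3 d and −0.061 to 0.041 at 14 d. TSPO ran from −0.022 to 0.091 at 1 h and −0.13 to 0.14 at 3 h, and HSD17B2 from −0.011 to 0.12 at 3 h, −0.065 to 0.062 at 3 d and −0.0045 to 0.15 at 7 d.

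The replicate block changed no call: with it, 3 genes were called at 14 d, beside 13000 of all transcripts. Deviations of birds with the same replicate number from their group means correlated at 0.03 on average over 111 pairs, beside −0.004 over 540 pairs with different numbers, so the numbers were not taken as pairs. The filter on dim transcripts leaves TSPO without a value. The mean over identifiers was not run, since each gene has 1 identifier that RefSeq records match. A fit of only the groups compared does not apply to any duration.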
